A study of Sus scrofa with 12 samples.

Results

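Mitochondrial ribosomal protein genes were described here in IPEC-J2 cells, an epithelial line from pig small intestine. The members are the genes of the peak table whose symbol begins with MRPL or MRPS and a digit, which gave 68 genes, 42 named MRPL and 26 named MRPS, of 11422 genes with a listed peak. The cells carried the wild-type label in all groups and were kept for 24 h with 25 µM (OAA) or 0 µM (CON) of OAA. The series title names 2-oxindole-3-acetic acid. RNA was fragmented and divided into a part bound by an antibody against m6A (N6-methyladenosine), a methyl mark on adenosines inside mRNA, and an unselected input part (MeRIP-seq). With 3 numbered replicates this gave 12 libraries in 4 groups, called here OAA labelled input, OAA labelled IP, CON labelled input and CON labelled IP. No label says that the replicates were grown separately, so p-values weigh a difference against the scatter of these samples, and that scatter may be technical.

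Mitochondria keep their own ribosome, which translates the few mRNAs of the mitochondrial genome, all for subunits of the oxidative phosphorylation complexes. Its RNAs are transcribed inside the organelle, while its proteins are encoded in the nucleus, made in the cytosol and imported. Some of these proteins have a bacterial counterpart and others were added during the evolution of the organelle. The large subunit (MRPL) holds the peptidyl transferase centre and the exit tunnel, and the small subunit (MRPS) holds the decoding site.

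Reads counted in the merged peaks, in megareads (M), came to 21.5, 20.4 and 19.0 M in OAA labelled input and 21.9, 16.5 and 23.0 M in CON labelled input. In labelled IP they came to 4.61, 4.51 and 4.36 M in OAA and 4.03, 4.46 and 3.71 M in CON. Titles and library codes contradict each other on which libraries were antibody-bound, and groups follow the titles here. The peak ratio below divides labelled input by labelled IP on a log2 scale, and the authors' deposited log2 values follow it at r = 0.999 in OAA and 0.9985 in CON over 24931 peaks. The deposited values are not centred near 0, with medians over these peaks of 4.04 in OAA and 3.97 in CON. Over the 85 members' own peaks their medians were 3.205 and 3.216, and their lowest values 1.61 and 1.88. A member peak called lower below therefore lies above 0 in the deposited values. If the codes hold, the peak ratio rises with antibody signal, and if the titles hold it falls with it. OAA labelled-IP library 3 stood apart from the others of its group, with a chi-square per degree of freedom over peaks of 4.30 and 3.79 against libraries 1 and 2, which gave 2.05 between themselves. Labelled-input libraries gave 5.62 to 8.86 between OAA libraries, where library 3 gave 8.86 and 8.61. Between CON libraries they gave 5.90 to 8.24, where library 1 gave 7.85 and 8.24. The measure grows with read depth, so it does not compare the scatter of the labels. Of the epithelial markers 5 of 5 reached 1 FPKM (the unit explained below), and KRT8, a keratin, stood at 396 FPKM. Of the enterocyte markers 2 of 9 reached 1 FPKM, and of the fibroblast markers 0 of 5. Of the leukocyte markers 1 of 4 did, CD79A of B cells at 5.73 ± 1.77 FPKM in OAA and 6.71 ± 0.633 FPKM in CON (SD, n = 3 each), while PTPRC, which defines leukocytes, was listed at 0. Of the endothelial markers 3 of 3 did, with CDH5 highest at 3.79 FPKM, and the part of other cell types in the results was not tested.

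The members carried 159 distinct peaks. Of these, 85 lay under a single gene and 74 also lay under a neighbouring gene, so that 52 members had a peak of their own and 16 had shared peaks alone. Of the 52, 29 had 1 own peak, 13 had 2 and 10 had 3, and the median was 1 own peak per member against 2 over genes with an own peak. The own peaks had a median span of 275 bp, against 300 bp over peaks under 1 gene. They lay mostly at the ends of the coding sequence: 38.8% touched the start codon, against 22.1% of mRNA peaks under 1 gene, and 34.1% touched the stop codon, against 25.2%. Peaks inside the coding sequence made up 11.8% of the members' own peaks, against 26.2% over mRNA peaks, and those in the 3′ UTR 10.6%, against 18.3%. These shares are a description of the deposited peak list. The genome build is not given in the sources used here, and positions are those of the authors' peak table.

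The gene table gives signal per transcript length and sequencing depth (FPKM) for the 6 libraries labelled IP. If the titles hold, these libraries are the antibody-bound part, and FPKM is then not a plain measure of expression. In this measure the members lay high and spread widely. Their median was 22.4 FPKM in OAA and 22.3 FPKM in CON, against 11.1 FPKM and 11.2 FPKM over the 10763 genes tested. A mean of at least 10 FPKM was reached by 57 of 68 members and of at least 100 FPKM by 5. The highest was MRPL57, a large subunit protein without a bacterial counterpart, at 164 ± 21.3 FPKM in OAA and 166 ± 7.35 FPKM in CON (SD, n = 3 each). MRPL20, MRPL24, MRPL40, MRPS26 and MRPS6 followed, with means over the 6 libraries of 134.5, 132, 126, 121 and 97.6 FPKM. MRPL20 and MRPL24 are counterparts of bacterial large subunit proteins, MRPS6 of a bacterial small subunit protein, and MRPL40 and MRPS26 have none. In OAA, MRPL20, MRPL24 and MRPL40 differed from each other by less than their SDs, which were 8.06, 10.9 and 16.4 FPKM. In CON they stood at 137.5 ± 2.52, 128.6 ± 3.00 and 122.5 ± 1.82 FPKM, further apart than their SDs.

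MRPL53 was listed at 0 in each of the 6 libraries and is given no place in the order, since the peak it shares with CCDC142 held 1364, 1242 and 1163 reads in OAA labelled IP and 1149, 1169 and 1068 in CON labelled IP, which cannot be divided between the genes. At the low end of the other members, MRPS16, a counterpart of a bacterial small subunit protein, stood at 1.79 ± 0.641 FPKM in OAA and 1.63 ± 0.514 FPKM in CON. MRPL50, MRPS30, MRPL47 and MRPL36 had means of 3.66, 5.26, 6.03 and 6.29 FPKM over the 6 libraries. MRPS30 belongs to the large subunit despite its name, and MRPL47 and MRPL36 have bacterial counterparts. Large and small subunit members had medians of 21.9 FPKM (44 members) and 23.3 FPKM (23 members) in OAA, and 22.04 and 22.5 FPKM in CON. MRPS36, for which the reference table gives the symbol KGD4, is today counted to the 2-oxoglutarate dehydrogenase complex and was put in neither class. It stood at 18.0 FPKM in OAA and 17.1 FPKM in CON. The members together took 0.507 ± 0.0182% of the summed FPKM in OAA and 0.502 ± 0.00696% in CON, a difference within the spread. In bulk libraries, fewer cells and less RNA per cell cannot be told apart.

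**Figure D1:**
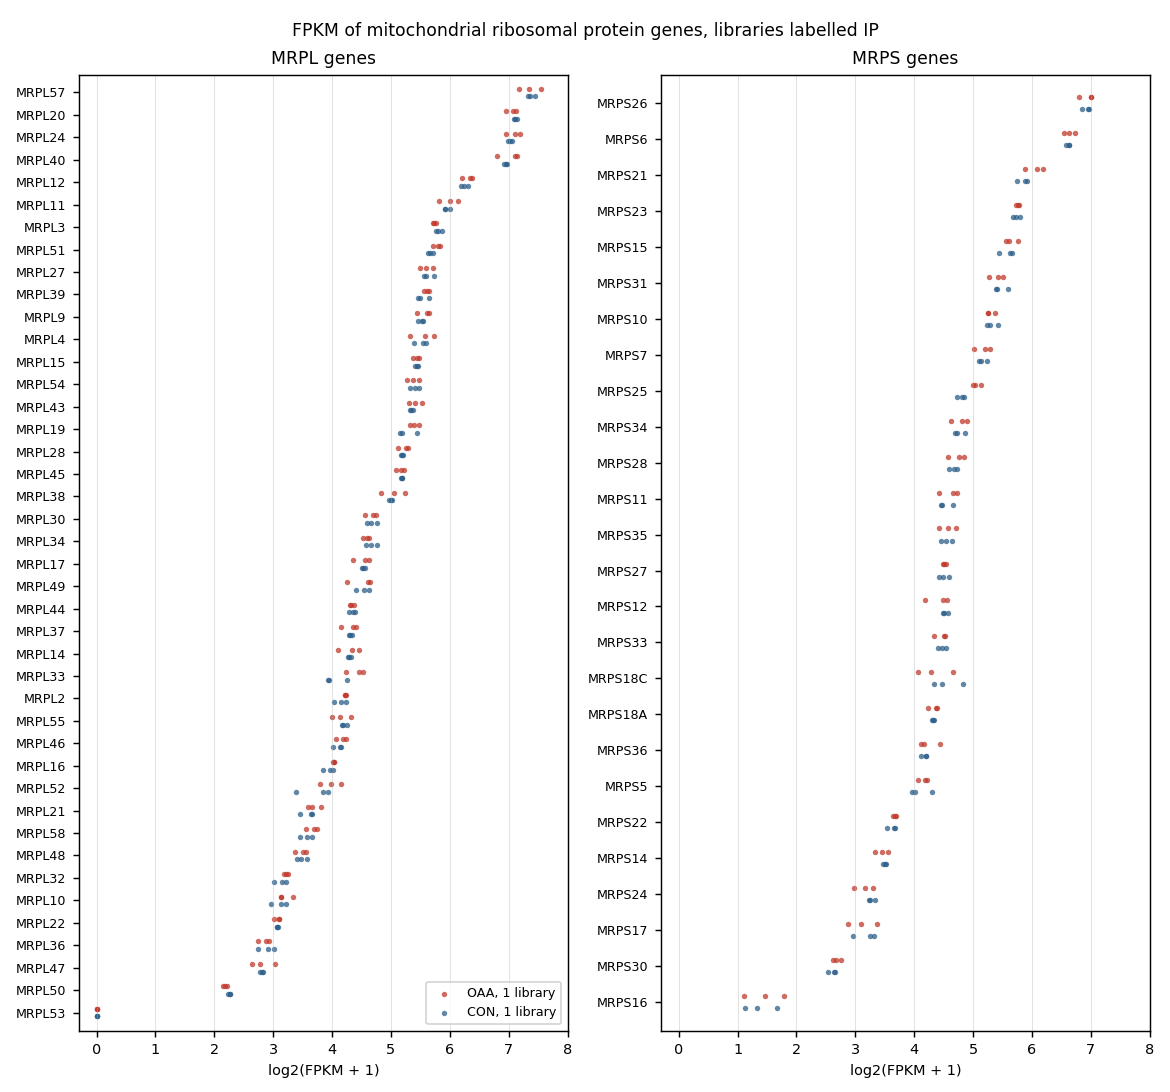
log2(FPKM + 1) of each of the 68 members (MRPL left, MRPS right, ordered by mean), 1 point per labelled-IP library, with the 3 OAA libraries above the 3 CON libraries. MRPL53, listed at 0, is drawn lowest in the left panel, though the text gives it no place in the order. The other members run from MRPS16 to MRPL57, and the OAA and CON points overlap for most members.

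Counts of the own peaks were summed per gene, and the ratio of labelled input to labelled IP was tested with edgeR's quasi-likelihood test on 9097 genes. Of the 52 members with own peaks 51 passed the filter on low counts. Relative to the typical gene, which TMM scaling sets near 0, most members lay low: in OAA 36 of 51 were called lower and 7 higher, and in CON 33 were called lower and 6 higher, at a Benjamini-Hochberg adjusted p under 0.05. Over the genes tested, 76.7% were called in either direction in each treatment. By direction, 38.0% were called lower and 38.7% higher in OAA, and 37.8% lower and 38.9% higher in CON. The median over members was -0.77 in OAA and -0.81 in CON, against 0.03 in each treatment over the genes tested. Of the 51 members, 31 were called lower in both treatments and 6 higher in both, and 0 in opposite directions. Calls differed between the treatments for MRPL2, MRPL4, MRPL9, MRPL14, MRPL45, MRPL47, MRPS27 and MRPS35, and the difference itself passed the test for none of them. Without OAA labelled-IP library 3 the median in OAA was -0.79, with 36 of 52 tested members called lower and 6 higher. Over the 9311 genes then tested the median was 0.07, with 3370 called lower and 3536 higher.

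Both subunits lay low. In OAA the large subunit had a median of -0.58 (20 of 31 called lower, 6 higher) and the small subunit of -0.81 (15 of 19 lower, 1 higher). In CON the medians were -0.61 (19 of 31 lower, 5 higher) and -0.83 (13 of 19 lower, 1 higher). Members with a bacterial counterpart had medians of -0.81 in OAA and -0.86 in CON (28 members), and those without one of -0.77 and -0.75 (22 members). These classes were not tested against each other. Across the 51 members, the ratio and the FPKM level shared little, with r = -0.18 and rho = -0.22 in OAA and r = -0.21 and rho = -0.22 in CON, given as a description over genes of the same libraries.

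**Figure D2:**
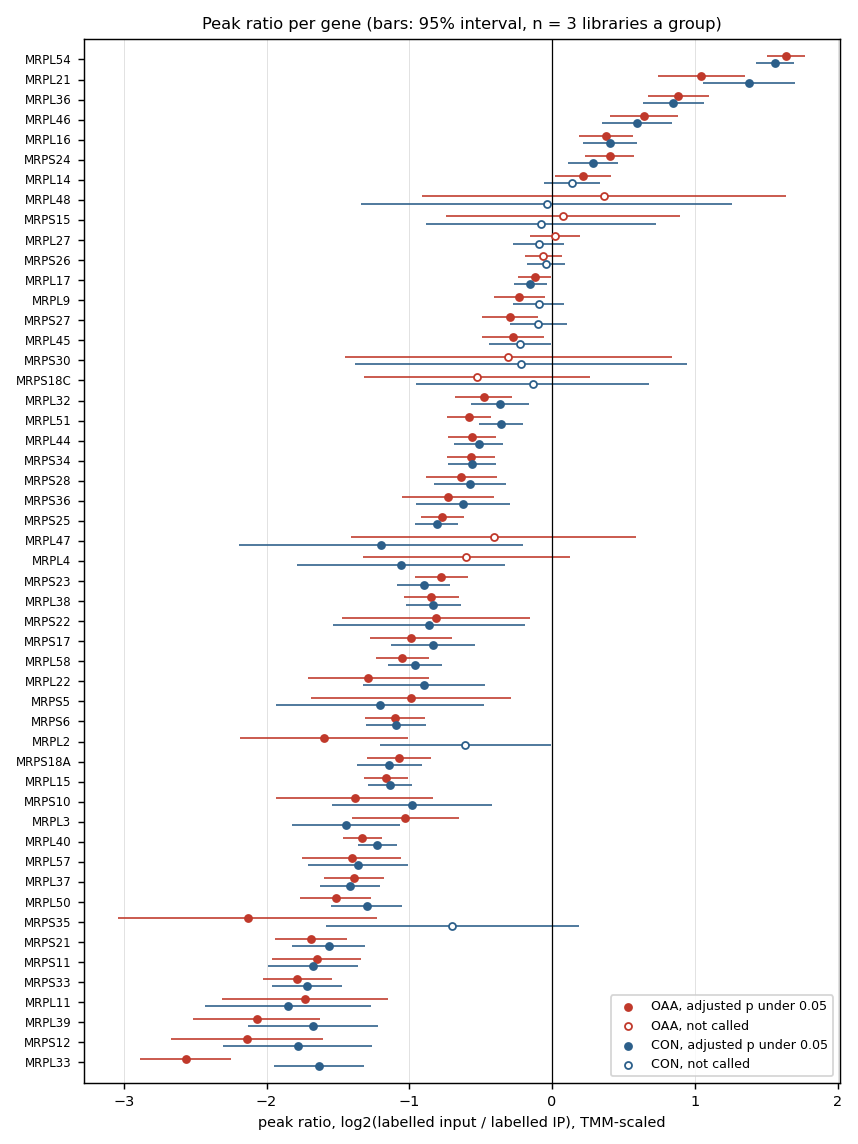
Peak ratio (log2 of labelled input over labelled IP, TMM-scaled, with its 95% interval) of the 51 tested members, OAA above CON in each row, filled where called. Most members lie left of 0 in both treatments, and MRPL54, MRPL21 and MRPL36 stand furthest to the right.

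The members with the highest ratio were MRPL54, MRPL21, MRPL36, MRPL46, MRPL16 and MRPS24, each called higher in both treatments. MRPL54, a large subunit protein of mitochondria without a bacterial counterpart, had 986, 1000.0 and 908 CPM (read counts scaled to library size and TMM factor) in OAA labelled input, against 338, 282 and 308 CPM in OAA labelled IP. In CON it had 915, 899 and 908 CPM in labelled input, against 311, 313 and 300.0 CPM in labelled IP. The labelled-input libraries lay far above the labelled-IP libraries in both treatments, with ratios of 1.64 ± 0.06 in OAA and 1.56 ± 0.06 in CON (SE, edgeR adjusted p = 4.42e-16 and 1.1e-15). MRPL21, a counterpart of a bacterial large subunit protein with 1 peak over its stop codon, had 43.7, 56.0 and 48.9 CPM in OAA labelled input, against 28.4, 21.1 and 22.4 CPM in OAA labelled IP, and 43.8, 44.2 and 52.1 CPM in CON labelled input, against 19.2, 14.99 and 19.9 CPM in CON labelled IP. The labels did not overlap in either treatment, and the ratios were 1.05 ± 0.15 in OAA and 1.38 ± 0.16 in CON. MRPL36, whose single peak spans start and stop codon, had 0.88 ± 0.10 and 0.85 ± 0.10. MRPL46 had 0.64 in OAA and 0.59 in CON, MRPL16 had 0.38 and 0.41, and MRPS24, a counterpart of the bacterial protein at the mRNA entrance, 0.40 and 0.28. MRPL14 at 0.22 was called in OAA, and its 0.14 in CON was not.

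MRPL33, MRPS12, MRPS35, MRPL39, MRPS33, MRPL11, MRPS21 and MRPS11 had the lowest ratios in OAA, between -2.57 and -1.65. MRPS12, the counterpart of a bacterial protein at the decoding site, had 4.43, 3.67 and 2.77 CPM in OAA labelled input, against 14.9, 18.9 and 14.2 CPM in OAA labelled IP. In CON it had 5.97, 3.98 and 4.14 CPM in labelled input, against 16.1, 17.8 and 14.7 CPM in labelled IP. The libraries of the 2 labels did not overlap, and its ratios were -2.14 ± 0.26 and -1.78 ± 0.25. This value rests on 1 peak inside the coding sequence, and the direction turned, to 1.80 in OAA and 1.84 in CON, when peaks shared with the overlapping FBXO17 were added. MRPL11, a counterpart of a bacterial protein at the factor-binding region, had -1.73 ± 0.28 in OAA and -1.85 ± 0.28 in CON, where it was the lowest member. The own peak of MRPS21 spans 14230 bp. MRPS33, a small subunit protein without a bacterial counterpart, had 21.9, 21.8 and 23.3 CPM in OAA labelled input, against 72.9, 73.9 and 84.2 CPM in OAA labelled IP, and 20.9, 24.4 and 20.3 CPM in CON labelled input, against 77.6, 67.3 and 70.1 CPM in CON labelled IP. Each labelled-input library lay below each labelled-IP library, with ratios of -1.78 ± 0.12 in OAA and -1.72 ± 0.12 in CON. MRPL39, a large subunit protein without a bacterial counterpart, had -2.07 ± 0.21 and -1.67 ± 0.22. MRPS35 was called lower in OAA at -2.13 ± 0.44, and its -0.70 ± 0.43 in CON was not called (edgeR adjusted p = 0.143), though without CON labelled-input library 1 it was -1.22 and called.

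The members' peaks at the start codon and inside the coding sequence had lower ratios than those at the stop codon, a difference over peaks that was not tested. Of the 85 own peaks 83 passed the filter. In OAA 52 were called lower and 13 higher, and in CON 50 lower and 13 higher, where 34.4% and 34.2% of the 24145 peaks tested were called lower and 34.1% and 33.9% higher (68.5% and 68.1% in either direction). Members' peaks at the stop codon had a median ratio of -0.36 in OAA and -0.36 in CON (29 peaks), with 18 lower and 9 higher in OAA and 16 lower and 8 higher in CON. Of all stop codon peaks, 31.6% were called lower and 46.3% higher in OAA, and 31.5% lower and 46.6% higher in CON. Peaks at the start codon had medians of -1.05 and -0.998 (31 peaks), with 19 lower and 1 higher in each treatment, where 34.7% of all start codon peaks were called lower and 25.3% higher in OAA, and 34.4% lower and 25.0% higher in CON. Peaks inside the coding sequence had medians of -0.91 and -1.09, with 9 of 10 called lower and 0 higher in each treatment, where 36.5% of all such peaks were called lower and 33.3% higher in OAA, and 35.9% lower and 33.1% higher in CON. Over the peaks of all genes, the medians were 0.32 at the stop codon and -0.16 at the start codon in OAA, and 0.33 and -0.16 in CON.

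In 16 members both a stop codon and a start codon peak were tested, which allows a comparison inside 1 gene and 1 library. The stop-to-start difference of the ratio was above 0 in 11 of 16 in each treatment, with medians of 0.50 in OAA and 0.24 in CON, against -0.01 and 0.04 over 1994 genes with both peaks. The 3 labelled-input libraries all lay above the 3 labelled-IP libraries in 9 members in OAA and in 6 in CON, and 34.8% of the 1994 genes did so in each treatment. They all lay below in 1 member in OAA, where 30.5% of the genes did, and in 2 in CON, where 30.6% did. In CON the share of members with all 3 above is near its background of 34.8%.

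MRPL54 differed most between its ends. Its stop codon peak (chromosome 2, positions 74925745 to 74926494, 750 bp) held 17300, 16618 and 14425 reads in OAA labelled input, against 1145, 909 and 942 in OAA labelled IP. In CON it held 16307, 12222 and 17041 reads in labelled input, against 912, 1009 and 818 in labelled IP. Its start codon peak (positions 74927258 to 74928144) held 156, 182 and 208 reads in OAA labelled input, against 79, 82 and 89 in OAA labelled IP, and 242, 136 and 170 in CON labelled input, against 77, 94 and 66 in CON labelled IP. Relative to the typical peak, which TMM scaling sets near 0, the first peak lay high and the second low. In OAA the ratios were 2.11 ± 0.07 at the stop codon, -0.77 ± 0.20 at the start codon and -2.03 ± 0.19 in the 3′ UTR. In CON they were 2.03 ± 0.07, -0.82 ± 0.20 and -1.97 ± 0.19. The authors' deposited log2 values lay above 0 at each of these peaks. In the same order they were 6.07, 3.18 and 1.93 in OAA, and 5.92, 3.04 and 1.88 in CON. The scaled ratios are called in both directions inside 1 gene, so the high ratio of MRPL54 as a gene is that of its stop codon peak.

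The same order held in MRPS24, MRPL17, MRPL14, MRPS26 and MRPS25, with stop-minus-start differences of 2.29, 1.76, 1.63, 1.57 and 1.11 in OAA and 2.31, 1.69, 1.36, 1.35 and 1.07 in CON. MRPL17, a counterpart of a bacterial large subunit protein, held the largest read count of an own member peak after MRPL54, with 15082, 13977 and 13567 reads in OAA labelled input and 14974, 11187 and 14873 in CON labelled input at its stop codon (chromosome 9, positions 3077429 to 3077778). Its ratio there was 0.20 ± 0.06 in OAA and 0.16 ± 0.06 in CON, against -1.59 ± 0.16 and -1.48 ± 0.16 at its start codon. MRPS28 ran the other way, at -2.15 in OAA and -0.999 in CON, but its start codon peak of 50 bp held 2 labelled-IP reads in OAA and 8 in CON. MRPL37 lay on opposite sides in the treatments: its log2 stop-to-start signal was -1.90 ± 0.16 in OAA labelled input, against -2.29 ± 0.14 in OAA labelled IP, and -2.52 ± 0.11 in CON labelled input, against -2.13 ± 0.06 in CON labelled IP (SD, n = 3 each). The libraries of the labels did not overlap in either treatment, and this turn was not tested. MRPL15 had differences of -0.16 in OAA, with overlap, and -0.35 in CON, without overlap. Peaks called in both directions were found in 9 of 23 members with several tested own peaks in OAA and in 9 in CON, against 34.7% and 34.5% of the 5499 genes with several tested own peaks, so the members' share lies near the background. MRPL14, MRPL17, MRPL37, MRPL45, MRPL54, MRPL58, MRPS24 and MRPS26 were among them in both treatments, with MRPL27 in OAA and MRPL50 in CON. MRPL58, a peptidyl-tRNA hydrolase built into the large subunit, and MRPL45, which helps to tether the ribosome to the inner membrane, had their higher peaks at the 5′ UTR with start codon and in the 3′ UTR. The highest ratio of a member peak was that of MRPL37 in the 3′ UTR (chromosome 6, positions 158084839 to 158085138), with 49, 46 and 50 reads in OAA labelled input, against 0, 1 and 0 in OAA labelled IP. On a linear scale, not log2, its scaled ratio was 38.9-fold, with a 95% counting interval of 6.87 to 1546. In CON it held 44, 66 and 28 reads in labelled input, against 1, 4 and 1 in labelled IP. The linear ratio in CON was 5.64-fold, with an interval of 2.53 to 15.6. Intervals of this kind cover counting error alone.

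**Figure D3:**
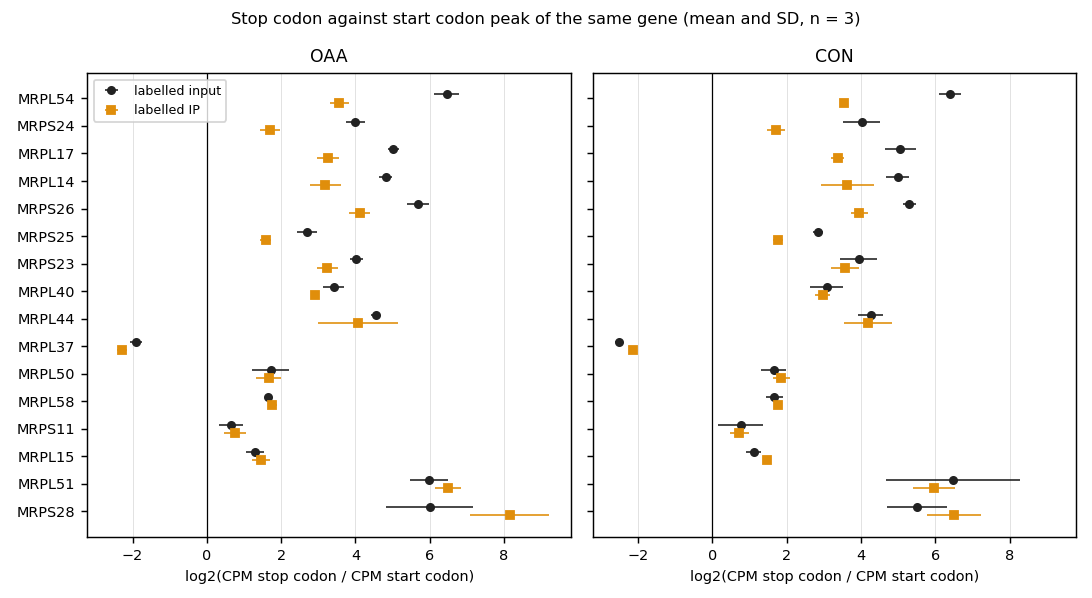
log2 of stop codon over start codon CPM for the 16 members with both peaks, as mean and SD of 3 libraries, for labelled input (circles) above labelled IP (squares), with OAA in the left panel and CON in the right. The circles lie right of the squares in MRPL54, MRPS24, MRPL17, MRPL14, MRPS26 and MRPS25 in both treatments.

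MRPS31, a small subunit protein without a bacterial counterpart, was the member with own peaks that failed the filter, with 56 reads in OAA labelled input, against 5 in OAA labelled IP, and 48 reads in CON labelled input, against 0 in CON labelled IP. On a linear scale, not log2, its scaled ratio was 3.00-fold in OAA (95% counting interval 1.21 to 9.61). In CON it was at least 3.93-fold, counted against a floor of 3 reads over the group. Of the 74 shared peaks 70 were tested, and 46 were called lower and 13 higher in OAA, and 45 lower and 13 higher in CON. Over the peaks of all genes, 34.4% were called lower and 34.1% higher in OAA, and 34.2% lower and 33.9% higher in CON. Reads in these peaks cannot be divided between the genes. The peak shared by HDGF and MRPL24 (chromosome 4, positions 93353110 to 93356354) had ratios of -4.70 ± 0.17 in OAA and -5.06 ± 0.18 in CON. A start codon peak shared by MRPL43 and TWNK, the mitochondrial DNA helicase, had -4.50 ± 0.16 in OAA and -3.92 ± 0.15 in CON. On the other side, a 5′ UTR peak shared by GUK1 and MRPL55 (chromosome 2, positions 51243101 to 51243576) had 3.89 ± 0.18 in OAA and 3.73 ± 0.18 in CON. The peak table lists 0 peaks of MRPL13, MRPL18, MRPL35, MRPS9 and MRPS18B, whose levels ran from 12.5 FPKM (MRPS9) to 53.2 FPKM (MRPL13) in OAA, and from 12.6 to 52.9 FPKM in CON.

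The other genes of mitochondrial translation did not share 1 ratio, and their call counts stand against 38.0% lower and 38.7% higher over all genes in OAA, and 37.8% lower and 38.9% higher in CON. The shares called higher or lower among the assembly factors and called higher among the synthetases and the transcription genes lie near those backgrounds in OAA. Translation factors had a median of -0.97 in OAA and -0.94 in CON (7 of 10 called lower and 2 higher in each). Among them TUFM, the elongation factor that brings aminoacyl-tRNA, had -1.66 ± 0.06 in OAA and -1.65 ± 0.06 in CON, and TSFM, its exchange factor, 1.05 ± 0.11 and 1.14 ± 0.11. Assembly and insertion factors were divided, with 7 of 16 lower and 7 higher in each treatment and medians of -0.17 and -0.09. MRM3, a methyltransferase of the mitochondrial large subunit rRNA, had 1.48 ± 0.09 and 1.33 ± 0.09, and ERAL1, which chaperones the small subunit rRNA, -1.71 ± 0.13 and -1.60 ± 0.13. Mitochondrial aminoacyl-tRNA synthetases had medians of 0.32 and 0.51 (6 of 13 higher and 3 lower in OAA, 7 higher and 3 lower in CON), led by PARS2, the prolyl enzyme, at 1.68 ± 0.09 and 1.67 ± 0.09. Genes of mitochondrial transcription and RNA processing had medians of 0.44 and 0.35, with 4 of 10 higher and 2 lower in each treatment. SUPV3L1, a helicase of mitochondrial RNA decay, had 2.11 ± 0.11 and 2.33 ± 0.11, and TFAM, which packages mitochondrial DNA, -1.05 ± 0.35 and -1.07 ± 0.35. CHCHD1 and PTCD3, mitoribosomal proteins under other symbols, were both called lower in both treatments.

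Nuclear oxidative phosphorylation genes lay lower than the members in this description, with medians of -1.64 in OAA and -1.53 in CON. Of 57 such genes, 53 were called lower and 2 higher in OAA, and 52 lower and 2 higher in CON. Cytosolic ribosomal protein genes had medians of -1.81 and -1.63. Of 70 such genes, 61 were called lower and 4 higher in OAA, and 60 lower and 3 higher in CON. Mitochondrially encoded mRNAs had medians of -1.71 and -1.68 (8 of 8 lower in each). Over all genes tested, 38.0% were called lower and 38.7% higher in OAA, and 37.8% lower and 38.9% higher in CON. The differences between lists were not tested.

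**Figure D4:**
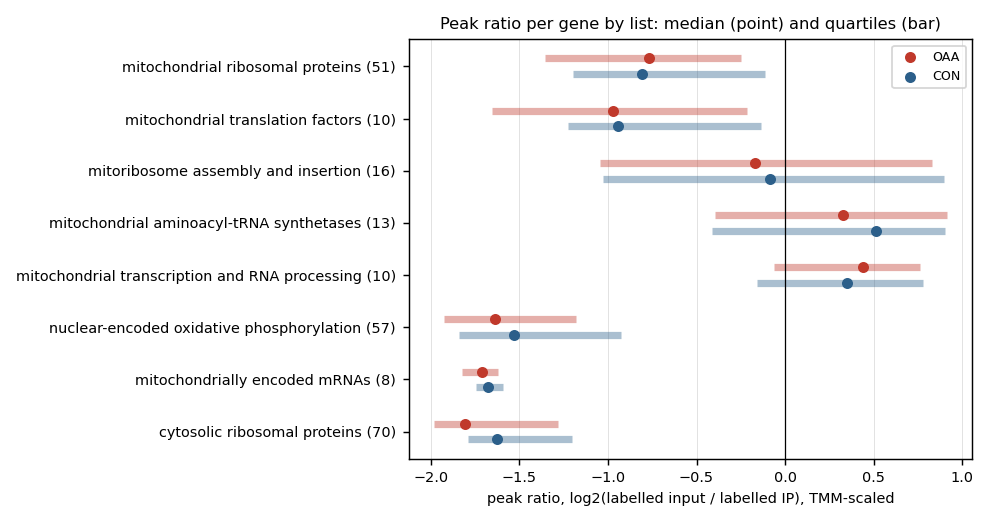
Peak ratio per gene by list, as the median (point) and the quartiles (bar), OAA above CON in each row, with the number of genes tested in brackets. The mitochondrial ribosomal proteins lie between the aminoacyl-tRNA synthetases, above 0, and the cytosolic ribosomal proteins, near -1.81 in OAA and -1.63 in CON.

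The series asks what OAA does to the m6A pattern, so the change of the ratio between the treatments was tested. No member was called: 0 of 51 members and 0.0% of the 9097 genes passed an adjusted p of 0.05 in edgeR, and DESeq2 called 0 of both. At an unadjusted p under 0.05 there were 4 members (MRPL33, MRPL2, MRPS35 and MRPL51, each lower in OAA) and 339 genes (3.73%) in edgeR. Per peak, 0 of 83 own member peaks and 0.0% of 24145 peaks were called in edgeR, with 6 and 1076 (4.46%) at an unadjusted p under 0.05. DESeq2 called 0 member peaks and 1 peak in all. The median change over members was -0.03, against -0.005 over genes. The 95% interval of a single member, which is not adjusted for the number of genes, had a median half-width of 0.34 per gene. A call at the adjusted p asks for more, and changes of -0.93 (MRPL33) and -1.435 (MRPS35) were not called. Changes of the log2 ratio well above 0.34 can therefore have been missed. In the authors' deposited table, the adjusted p was 0.9998 for each of the 156 member peaks, shared ones included, that have one.

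Signal within a label gave no call either. Between OAA and CON, 0 of 51 members and 0.0% of 9097 genes were called in labelled input and in labelled IP by edgeR, and DESeq2 called 0 genes in each. At an unadjusted p under 0.05 there were 4 members and 420 genes (4.62%) in labelled input, and 3 members and 441 genes (4.85%) in labelled IP. In FPKM, limma called 0 of 67 members and 0.0% of 10763 genes, with 3 members and 356 genes (3.31%) at an unadjusted p under 0.05. The median difference of log2(FPKM + 1) was 0.02 over members and -0.01 over genes, and 43 of 67 members lay above 0, where 43.0% of genes did. That shift was not shared by the libraries: against the CON mean, the members' median was 0.07 and 0.06 in OAA libraries 1 and 2 and -0.05 in library 3, and between -0.03 and 0.02 in the CON libraries. Without OAA library 3 limma still called 0 members, with a median of 0.05. At an unadjusted p under 0.05 there were then 13 members, 12 of them higher in OAA, and 1763 genes (16.5%).

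MRPL33, a counterpart of a bacterial large subunit protein, had the smallest p among members for the change. Its single own peak lies at the stop codon (chromosome 3, positions 111428906 to 111429080, 175 bp). It had 9.65, 10.8 and 9.97 CPM in OAA labelled input, against 14.8, 17.1 and 12.2 CPM in CON labelled input. In labelled IP it had 52.3, 62.9 and 65.0 CPM in OAA, against 51.7, 38.6 and 46.2 CPM in CON. Labelled input was lower and labelled IP higher in OAA, without overlap in either, though 52.3 and 51.7 CPM nearly meet. The ratio was -2.57 ± 0.15 in OAA and -1.63 ± 0.15 in CON, and its change of -0.93 ± 0.21 had an unadjusted p of 0.000239 but an adjusted p of 0.9998 in edgeR. The authors' deposited table gives this peak a difference of -0.87 with p = 0.00548 and an adjusted p of 0.9998. In FPKM, MRPL33 had 17.9, 21.0 and 22.04 in OAA, against 18.0, 14.4 and 14.2 in CON. The lowest OAA library lay below the highest CON library, and the difference of 0.37 ± 0.10 did not pass (limma adjusted p = 1.0).

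MRPS25, a small subunit protein without a bacterial counterpart, had the smallest p among members in FPKM. It had 30.8, 31.8 and 34.0 FPKM in OAA, against 25.6, 27.8 and 27.1 FPKM in CON. Each OAA library lay above each CON library, by a mean of 32.2 ± 1.63 FPKM against 26.8 ± 1.09 FPKM (SD, n = 3 each). The difference of 0.25 ± 0.06 on the log2(FPKM + 1) scale did not pass the adjustment (limma adjusted p = 1.0). Its peaks were higher in OAA as well, with 98.6, 98.2 and 99.1 CPM in OAA labelled input, against 87.0, 87.7 and 88.5 CPM in CON labelled input, and its ratio did not pass the test of change (-0.77 ± 0.07 in OAA and -0.81 ± 0.07 in CON, edgeR p of the change 0.697, 95% interval of the change -0.17 to 0.25). MRPS21, a counterpart of a bacterial small subunit protein, had 67.1, 72.0 and 58.1 FPKM in OAA, against 58.0, 59.1 and 53.0 FPKM in CON, with overlap. Among members below 0, MRPL3, MRPS24 and MRPS18C had the smallest p in FPKM, with differences of -0.07, -0.12 and -0.21 and unadjusted p of 0.201, 0.204 and 0.215 in limma.

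**Figure D5:**
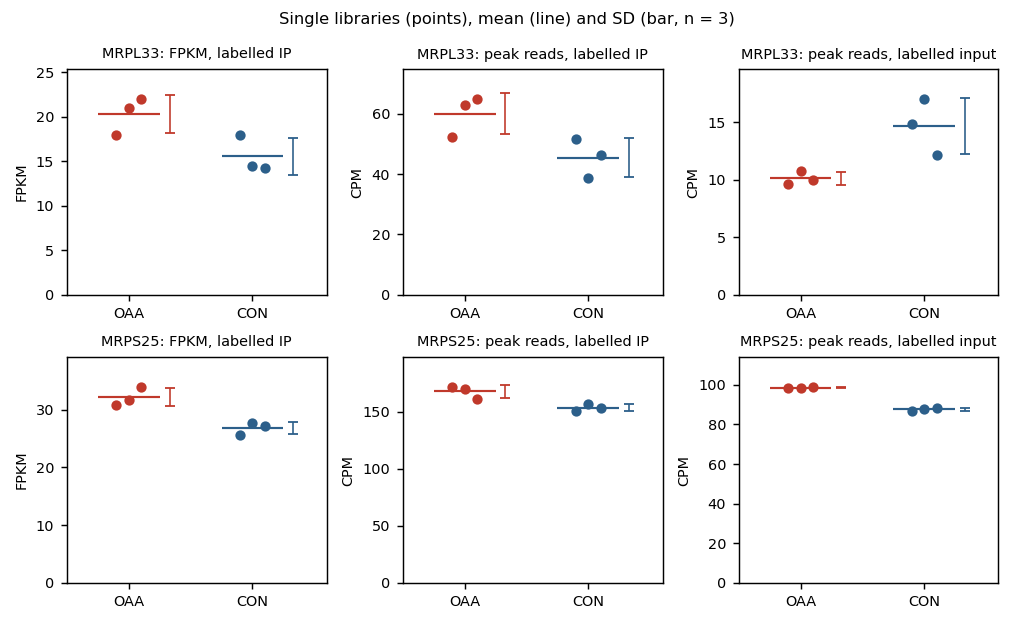
MRPL33 (top) and MRPS25 (bottom) in single libraries (points), with the mean (line) and SD (bar, n = 3), OAA left of CON, as FPKM, labelled-IP CPM and labelled-input CPM. MRPL33 is higher in OAA in labelled IP and lower in labelled input, and MRPS25 is higher in OAA in all 3 measures, but neither passed the adjustment. FPKM and labelled-IP CPM come from the same libraries and are not separate evidence.

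The other lists of mitochondrial translation gave 0 calls between OAA and CON in FPKM in limma, and 4 of their 73 tested genes (5.48%) had an unadjusted p under 0.05, near the 3.31% over all genes. These were MTRFR, a ribosome rescue factor (-0.27 ± 0.11), MTG1, an assembly GTPase (0.19 ± 0.08), GATC, a subunit of the glutaminyl-tRNA amidotransferase (0.26 ± 0.11), and PTCD3, a small subunit protein (-0.12 ± 0.05). For the change of the ratio, the median was -0.16 over 70 cytosolic ribosomal protein genes, of which 8 lay above 0, and -0.03 over the 51 members, of which 20 did. Both lists had 0 calls in edgeR, and their difference was not tested.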

How the data were processed

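MeRIP-seq libraries of OAA and CON cells (3 numbered replicates of labelled input and labelled IP each) were used as deposited. Per the file headers, the deposited peak table holds raw read counts per merged peak and library, the authors' log2 ratios, and their p-values for the difference between treatments. The deposited gene table holds FPKM of the libraries labelled IP, with no counts behind them. Bowtie2 and HISAT2 are named per the submitters' processing notes. Their versions and roles, like the build, stay unstated in these sources. Columns were matched to samples through the codes in the labels (0 unmatched).

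Each peak was used once, and a gene's count is the sum over peaks that lie under it alone. All 12 libraries entered 1 fit per level in edgeR 4.0.16 under R 4.3.3 (quasi-likelihood test after TMM scaling and filterByExpr). FPKM were tested as log2(FPKM + 1) in limma 3.58.1 with a trend, keeping genes that reached 1 FPKM in 3 or more libraries, a scale that understates differences of low genes. P-values were adjusted over all features. Because TMM centres each comparison, peak ratios are relative, and reads in peaks are not library totals. The stop-to-start difference uses log2(CPM + 0.1), with CPM scaled by TMM. Alternatives were DESeq2 1.42.0, scaling by library size, no filter, peaks over 10000 bp left out, shared peaks added, the replicate block, other FPKM settings and each library left out.

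Members, lists and tests were chosen with earlier results of these data known. Named are the 8 members at each end of a ratio, of which the text gives part, those with the smallest p between treatments, the 6 highest and lowest in FPKM, and members with peaks called in both directions. MRPS31, MRPS36 and the shared peaks were chosen after their values were seen. All libraries carry 1 batch label, and replicate numbers were checked for pairing (correlations of deviations between -0.06 and 0.06). The fits were also run on simulated data with a fixed spread, which does not show how they perform at the scatter of these libraries.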

Additional observations from a re-analysis of the deposited data

How the results depend on the processing

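The count of members called stayed within 1.5 times its main value under each alternative run, and it was 0 in each OAA against CON comparison and for the change of the ratio. Leaving out 1 library at a time, 39 to 42 members were called in OAA and 36 to 40 in CON per gene, and 60 to 65 and 56 to 64 per peak. The median ratio of the members was below 0 under each alternative. Per gene it was -0.86 in OAA and -0.93 in CON under library size scaling, which moves the median of all genes to -0.07 and -0.09. Without peaks over 10000 bp, which among the members' own peaks are those of MRPL22 and MRPS21, it was -0.67 and -0.65. Per peak it was -1.04 and -0.96 under library size scaling, which moves the median of all peaks to -0.24 and -0.28, and -0.57 in CON with DESeq2. With that scaling 56 member peaks were called lower and 8 higher in OAA, and 57 lower and 8 higher in CON. Over all peaks it called 9892 lower and 6729 higher in OAA, against 8295 and 8237 with TMM, and 10068 lower and 6516 higher in CON, against 8250 and 8181. Leaving out libraries gave medians of -0.81 to -0.74 in OAA and -0.80 to -0.69 in CON per gene, and -0.76 to -0.55 in OAA and -0.70 to -0.57 in CON per peak. MRPS12 turned to 1.80 in OAA and 1.84 in CON with shared peaks added. In CON, MRPL2 was called without labelled-IP library 2 (-0.82), without labelled-input library 1 (-0.72) and under library size scaling (-0.72), and MRPS35 with shared peaks added (-2.61). The causes were not tested.

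Same-numbered libraries did not deviate together, so the numbers were not taken as pairs. With the replicate block the medians were -0.77 in OAA and -0.81 in CON, with 39 members called in CON, and 0 members were called between treatments. The count of genes at an unadjusted p under 0.05 in FPKM was then 234, against 356 without the block.

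Labelled-input libraries hold 16.5 to 23.0 M reads in peaks and labelled-IP libraries 3.71 to 4.61 M, and members with few such reads, such as MRPL37 in the 3′ UTR, MRPS28 and MRPS31, have wide intervals.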
